A study of Mus musculus with 23 samples.

Results

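*S100a8*, *S100a9*, *Ly6g*, *Retnlg*, *Itgam*, *Cd33*, *Trem1*, *Cd177*, *Nos2*, and *Cybb* are genes by which mature neutrophils and myeloid-derived suppressor cells (MDSCs) are commonly recognized. They were chosen by symbol, and all 10 were found among the 48895 symbols of the RNA-seq table. Not all of them are surface markers: *Ly6g*, *Itgam*, *Cd33*, *Trem1*, and *Cd177* encode proteins of the cell surface and *Cybb* a protein of the granule and phagosome membrane, whereas the products of *S100a8*, *S100a9*, and *Nos2* are cytoplasmic and that of *Retnlg* is secreted. Expression was measured in 23 libraries of poly(A) RNA from male BALB/c mice aged 4 to 6 weeks at the start. The control liver group (n = 5) came from sham-operated mice, which received serum-free RPMI 1640 medium in the wall of the cecum and carried no tumor. The pre-metastatic liver group (n = 9) and the primary tumor group (n = 9) came from 9 mice that received CT26 cells, a mouse colon carcinoma line, in the same place, and each of these mice gave a liver and a tumor after 3 weeks. CT26 is a single transplanted line, so the tumors are 9 growths of the same cells in syngeneic hosts.

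MDSCs are immature or diverted myeloid cells that leave the bone marrow during cancer and chronic inflammation and restrain T cells. In the mouse they are divided into a polymorphonuclear form, which carries CD11b and Ly6G like a neutrophil, and a monocytic form, which carries CD11b and high Ly6C. The products of *S100a8* and *S100a9* join to form calprotectin, a calcium-binding complex that fills the neutrophil cytoplasm and attracts further myeloid cells when released, while the products of *Nos2* and *Cybb* make nitric oxide and superoxide, by which myeloid cells act on microbes and on lymphocytes.

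*S100a8* and *S100a9* lie next to each other on chromosome 3, on opposite strands (from 90669071 to 90670034 on the plus strand, and from 90692630 to 90695721 on the minus strand, build mm10). *Itgam* lies on chromosome 7 from 128062640 to 128118491 on the plus strand, and *Cd33* (43527399 to 43537424) and *Cd177* (24743983 to 24760334) lie on the minus strand of the same chromosome. *Ly6g* is on chromosome 15 from 75155261 to 75159128, *Retnlg* on chromosome 16 from 48872608 to 48874498, *Trem1* on chromosome 17 from 48232362 to 48246924, *Nos2* on chromosome 11 from 78920787 to 78960232, and *Cybb* on chromosome X from 9435252 to 9487766. All 10 are listed as protein-coding. The 250 bases before the RefSeq starts of these 3 genes (assembly GRCm38.p6) are shown because *S100a8* and *S100a9* moved together in every group whereas *Itgam* took a separate course in the tumor. Capitals mark matches on either strand to a C/EBP motif (TTNNGNAA) and to a PU.1 motif (AGGAAGT), motifs of transcription factors that act in granulocytes and other myeloid cells. The windows are chr3:90668821-90669070 on the plus strand for *S100a8*, chr3:90695722-90695971 on the minus strand for *S100a9*, and chr7:128062390-128062639 on the plus strand for *Itgam*, each read 5′ to 3′ along its gene.
S100a8: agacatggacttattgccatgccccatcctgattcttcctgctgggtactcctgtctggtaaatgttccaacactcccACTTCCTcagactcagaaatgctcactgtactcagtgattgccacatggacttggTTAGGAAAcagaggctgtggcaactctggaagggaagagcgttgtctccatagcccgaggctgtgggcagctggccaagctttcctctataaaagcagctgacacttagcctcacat
S100a9: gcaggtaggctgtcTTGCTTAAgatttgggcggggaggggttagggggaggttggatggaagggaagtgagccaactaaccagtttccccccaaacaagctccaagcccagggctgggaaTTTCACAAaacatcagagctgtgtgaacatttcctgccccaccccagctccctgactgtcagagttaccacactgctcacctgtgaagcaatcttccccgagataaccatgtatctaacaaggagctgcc
Itgam: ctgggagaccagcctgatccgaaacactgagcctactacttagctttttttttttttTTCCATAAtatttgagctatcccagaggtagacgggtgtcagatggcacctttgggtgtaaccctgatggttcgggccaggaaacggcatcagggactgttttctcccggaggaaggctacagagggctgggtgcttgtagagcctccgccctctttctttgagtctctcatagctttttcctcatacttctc
The C/EBP letters were found 1 time for *S100a8*, 2 times for *S100a9*, and 1 time for *Itgam*. The PU.1 letters were found 1 time for *S100a8*. Of the members, 9 had a promoter entry, and the starts used for *Retnlg* and *Trem1* were not found near the start of a GENCODE transcript. The windows of *Cd33* (43533172 to 43533421) and *Cybb* (9469325 to 9469574) had such a start but lie inside the gene spans given above. Both windows held neither the C/EBP nor the PU.1 letters and are counted below. Of the 9, 7 held the C/EBP letters, which 36.8% of all 32851 promoters held over the same length. The PU.1 letters stood in 3 of the 9 (*S100a8*, *Ly6g*, and *Trem1*), against 7.69% of all promoters, and the NF-kB motif in 0 of 9, against 0.356%. Without *Retnlg* and *Trem1* the C/EBP letters stood in 5 of 7 and the PU.1 letters in 2 of 7. The motifs did not overlap each other in the windows shown. A match to such short letters is a description of the window and does not show that a factor binds there.

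Total counts were 44587556 to 79773163 per library, with a median of 55927997, and no library was a copy of another. Levels are given as RPKM, counts scaled to the gene's length and to the library's total. Differences are log2 fold changes ± SE from edgeR with TMM scaling, with *p* values adjusted over all genes tested, and an adjusted *p* under 0.05 is called a change. TMM factors over all 23 libraries were 0.64 to 0.844 in the livers and 1.54 to 1.69 in the tumors, so that folds between tumor and liver are smaller by TMM than by RPKM. The median gene was 0.13 higher in tumor than in pre-metastatic liver (log2) by TMM and 1.3 higher by library totals, and changes in the tumor are read here against the former. In such bulk samples, fewer cells of a type and less RNA per cell cannot be told apart. The hepatocyte markers *Alb*, *Apoa1*, *Ttr*, and *Cps1* summed to 27000.0 to 62100.0 RPKM in the livers and to 5.36 to 244.0 RPKM in the tumors. Of the epithelial markers, *Krt20* was at a mean of 65.4 RPKM in the tumors and *Epcam* at 0.305 RPKM, so the defining marker *Epcam* was nearly absent. The livers were also split at the largest gap of an index of 6 clock genes. This gave an early phase (9 livers, 4 control and 5 pre-metastatic) and a late phase (5 livers, those of M1, M2, M10, M12, and control C7). C7 lay in between, at an index of 0.981, against at most -0.102 in the early phase and at least 2.05 in the other late livers. Comparisons were repeated within the early phase.

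In pre-metastatic liver, both calprotectin genes, the CD11b gene *Itgam*, the siglec *Cd33*, the receptor *Trem1*, and the oxidase gene *Cybb* were higher than in control liver, by 2.76-fold for *Cybb* to 6.74-fold for *Itgam* among those with more than a few counts in the control. Of the 10 members, 8 passed the filter of at least 10 counts in at least 5 libraries, 6 rose, and the other 2 (*Retnlg* and *Cd177*) were not called. Over all 16987 genes tested, 31.0% were called, 17.7% higher and 13.3% lower. The median log2 fold change of the 8 members that passed was 2.22, against 0.01 over all genes tested. *Ly6g* and *Nos2* did not pass the filter. Of the 6 that rose, *Trem1* passed through the pre-metastatic livers alone, so its difference was required for it to be tested.

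**Figure D1:**
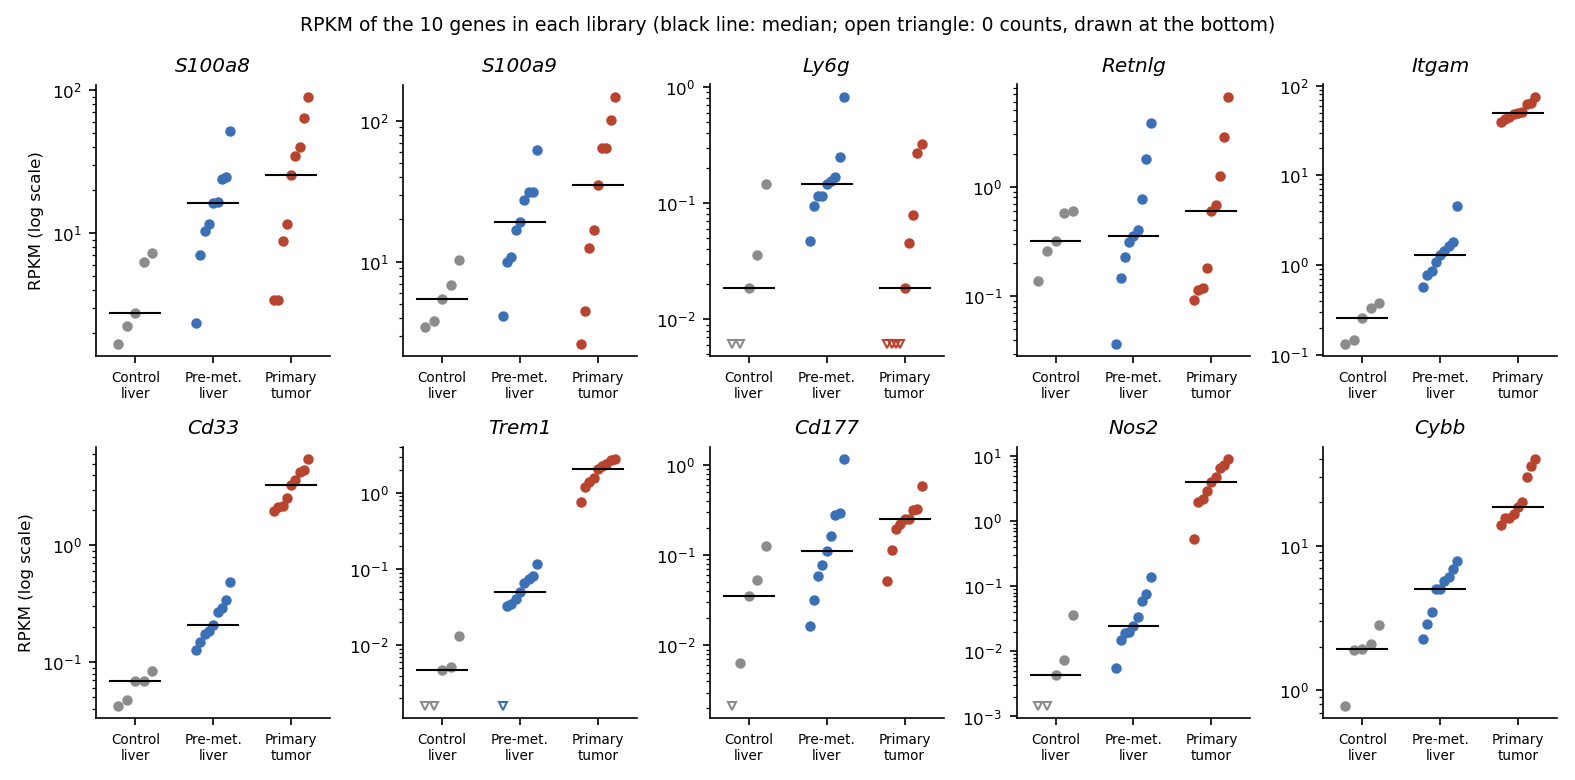
RPKM (log axis) of each of the 10 genes in every library of control liver (n = 5), pre-metastatic liver (n = 9), and primary tumor (n = 9), each point a library, the black line the median, and open triangles libraries with 0 counts, drawn at the bottom. *Itgam*, *Cd33*, *Trem1*, *Nos2*, and *Cybb* were higher in all 9 tumors than in any liver, whereas the tumors overlapped both liver groups for *S100a8*, *S100a9*, *Ly6g*, *Retnlg*, and *Cd177*.

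*S100a8* was at 1.69, 2.24, 7.23, 2.75, and 6.27 RPKM in the control livers of mice C1, C4, C5, C6, and C7. In the 9 pre-metastatic livers it was at 2.35 to 51.9 RPKM with a median of 16.3. Pre-metastatic livers from 7 of the 9 mice exceeded every control liver, and those of M2 (2.35 RPKM) and M5 (7.08 RPKM) lay within the control range. The rise was 4.98-fold (log2 2.32 ± 0.62, edgeR adjusted *p* = 0.0106). Without mouse M1, the liver with the highest level, it was 1.96 on the log2 scale (adjusted *p* = 0.0157).

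*S100a9* was at 3.79, 3.48, 10.3, 5.42, and 6.88 RPKM in the control livers of the same mice. In the pre-metastatic livers it was at 4.11 to 62.0 RPKM with a median of 19.3, again above every control liver in 7 of 9 mice. It rose 4.33-fold (log2 2.11 ± 0.54, edgeR adjusted *p* = 0.00858). The ratio of *S100a8* to *S100a9* within a library was 0.446 to 0.911 in control liver, 0.571 to 0.942 in pre-metastatic liver, and 0.54 to 1.3 in the tumor. None of the 3 comparisons of this ratio passed (exact two-sided Wilcoxon rank-sum *p* = 0.24, 0.387, and 0.606), and the medians of 0.643, 0.762, and 0.691 show the 2 subunit genes at comparable levels per length in each tissue.

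*Ly6g*, the antigen by which mouse neutrophils are told from monocytes, was close to the limit of detection. The control livers of C1 and C7 had 0 counts, and those of C4, C5, and C6 had 1, 2, and 7. The pre-metastatic livers had 2 to 41 counts, the highest in M1 (0.82 RPKM), with a median of 0.146 RPKM. Levels in pre-metastatic liver exceeded all control livers in 4 of 9 mice. Without the count filter the difference was 2.46 ± 0.87 (log2, edgeR adjusted *p* = 0.0649), which did not pass. By the exact Wilcoxon rank-sum test on RPKM, *p* was 0.0185 without adjustment over genes. *Ly6g* belongs to a family of near-identical genes on chromosome 15, and reads that match several of them may have been assigned unevenly, so that its counts are uncertain.

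*Retnlg*, which encodes a resistin-like protein made by neutrophils, was at 0.137 to 0.599 RPKM in control liver and at 0.0369 to 3.8 RPKM in pre-metastatic liver (medians of 0.318 and 0.357 RPKM). The groups overlapped, and 3 of the 9 pre-metastatic livers were above every control liver. The difference was 1.36 ± 0.86 on the log2 scale (edgeR adjusted *p* = 0.253). *Cd177*, a surface glycoprotein of neutrophils that binds the endothelial protein PECAM-1, was at 0 to 0.127 RPKM in control liver and at 0.0163 to 1.16 RPKM in pre-metastatic liver (medians of 0.0357 and 0.112 RPKM). Its difference of 2.55 ± 1.03 did not pass (adjusted *p* = 0.0708), although DESeq2 called it (adjusted *p* = 0.0164). Without M1 it was 1.68 (edgeR adjusted *p* = 0.154).

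*Itgam* encodes integrin alpha M, or CD11b, the chain shared by neutrophils, monocytes, and both forms of MDSC. It was at 0.145, 0.375, 0.132, 0.255, and 0.33 RPKM in the control livers of C1, C4, C5, C6, and C7, and at 0.57 to 4.5 RPKM in pre-metastatic liver with a median of 1.28. The groups did not overlap. Among all genes tested, 4.85% were higher in every pre-metastatic liver than in any control liver. The rise was 6.74-fold (log2 2.75 ± 0.5, edgeR adjusted *p* = 0.000877), and 2.37 on the log2 scale without M1 (adjusted *p* = 0.000438). *Cd33*, a sialic acid receptor of myeloid cells, was the other member without overlap, at 0.0423 to 0.084 RPKM in control liver (8 to 15 counts) and at 0.128 to 0.484 RPKM in pre-metastatic liver. It rose 4.15-fold (log2 2.05 ± 0.35, adjusted *p* = 0.000584).

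*Trem1*, a receptor that amplifies inflammatory signals in neutrophils and monocytes through the adaptor DAP12, had 5 counts in all in the 5 control livers and 109 in the 9 pre-metastatic livers. It was found in 8 of 9 pre-metastatic livers, up to 0.117 RPKM in M6, and was at 0 counts in M2. The ratio of these counts per total was 12.1, with a 95% interval for counting error of 5.01 to 37.9, and the edgeR adjusted *p* was 0.00463. This call was lost with limma on log2(RPKM + 1) (adjusted *p* = 0.145), and without the pre-metastatic liver of M1, M4, M5, M6, or M7 the gene fell under the filter and was not tested.

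*Nos2*, the inducible nitric oxide synthase, was likewise near the limit, with 0 to 9 counts in control liver and 2 to 35 in pre-metastatic liver. The highest control liver was that of C7 (0.0364 RPKM) and the highest pre-metastatic liver that of M5 (0.14 RPKM). The difference was 2.2 ± 0.88 without the count filter and did not pass (edgeR adjusted *p* = 0.107). By the exact Wilcoxon rank-sum test on RPKM, *p* was 0.0405 without adjustment over genes. *Cybb* encodes the catalytic subunit of the phagocyte NADPH oxidase and was at 0.779 to 2.85 RPKM in control liver (226 to 779 counts) and at 2.27 to 7.85 RPKM in pre-metastatic liver, where 8 of 9 exceeded all control livers. The rise was 2.76-fold (log2 1.46 ± 0.28, adjusted *p* = 0.00145). *Cybb* overlaps *Gm33784* on the opposite strand, and whether the counts used strand is not given in the sources used here.

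The rises of *S100a8*, *S100a9*, *Itgam*, *Cd33*, and *Cybb* were also called among the 9 early-phase livers, at 2.22, 1.89, 2.57, 1.93, and 1.37 on the log2 scale (edgeR adjusted *p* = 0.0104, 0.0131, 0.00128, 0.00513, and 0.0144), where *Trem1* was under the filter.

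Other genes of neutrophils moved in the same direction in pre-metastatic liver. Of 14 neutrophil surface and activation genes, 12 were tested, 9 rose, and 0 fell, with a median of 1.73. The largest rises were those of the lectin receptor *Clec4e* (2.61), *Clec4d* (2.28), the decoy receptor *Il1r2* (2.14), and the G-CSF receptor *Csf3r* (1.98). *Clec4e* had 0 to 6 counts in the control livers and passed the filter through the pre-metastatic livers alone, so its difference was required for it to be tested. Of the integrin and adaptor genes, all 6 rose: the beta chain *Itgb2* (1.65), the other alpha chains *Itgax* (1.93) and *Itgal* (1.23), the adaptors *Tyrobp* (1.3) and *Fcer1g* (1.17), and kindlin-3, *Fermt3* (1.18). Of 5 other NADPH oxidase genes, *Ncf1* (1.64), *Ncf4* (1.56), *Rac2* (1.44), and *Cyba* (1.12) rose, and *Cybc1*, listed under an older symbol, was at -0.12 (edgeR adjusted *p* = 0.51). Each of these values is a log2 fold change, and the median over all genes tested was 0.01.

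Granule genes were also higher. The granulocyte precursor genes *Prtn3* (5.99), *Ctsg* (2.89), *Mpo* (2.82), and *Elane* (2.0) rose, 4 of 4 tested, and *Prtn3* reached a mean of 72.0 RPKM against 1.22 in control liver. Of the secondary and tertiary granule genes, 4 of 8 tested rose and 0 fell, *Mmp9* (2.78), *Ltf* (2.73), *Mmp8* (2.33), and *Lcn2* (2.32). *Lcn2* is also made by hepatocytes and was at a mean of 839.0 RPKM in pre-metastatic liver, where the neutrophil gene *Ltf* was at 0.83 RPKM. The attractants *Cxcl5* (6.4) and *Cxcl1* (3.42) and the calprotectin receptor *Tlr4* (0.85) rose, 3 of 3 tested, *Cxcl5* passing the filter through the pre-metastatic livers alone. Of the suppressive effectors, *Ptges* (1.78), *Cd274* (1.43), and *Tgfb1* (0.72) rose and *Arg1* (-1.22) and *Slc7a2* (-1.04) fell, the last 2 being abundant in liver itself. By library totals *Tgfb1* was not called (0.66, edgeR adjusted *p* = 0.0582).

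Markers of other cells moved with these genes. All 7 monocyte markers rose (median 1.98), led by *F13a1* (3.11), and their sum was 3.57 to 4.97 RPKM in control liver and 9.2 to 23.8 RPKM in pre-metastatic liver. Of the macrophage and Kupffer cell markers, 6 of 8 rose. All 4 leukocyte markers rose, with sums of 6.21 to 14.8 and 16.5 to 47.7 RPKM. All 5 red cell genes rose as well, with sums of 215.0 to 484.0 RPKM in control liver and 556.0 to 1200.0 RPKM in pre-metastatic liver, which did not overlap. Of the B cell markers, 3 of 4 rose, and of the platelet markers, *Ppbp* (1.41) and *Itga2b* (0.76), 2 of 4 (1 of 4 by library totals). The 4 T cell markers were not called, at 0.34 to 0.74 (edgeR adjusted *p* = 0.238 to 0.571). Eosinophil genes summed to at most 0.434 RPKM in a liver and were under the filter, and *Prg2* was at 0 in every control liver. Of the epithelial markers, 2 of 5 rose, the keratins *Krt19* (2.03, edgeR adjusted *p* = 0.0135) and *Krt20* (3.67, adjusted *p* = 0.035). *Krt19* was at a mean of 1.21 RPKM in control liver, 4.45 RPKM in pre-metastatic liver, and 0.6 RPKM in the tumors. *Krt20*, which was abundant in the tumors, had 0 to 5 counts in the control livers, 144 in the pre-metastatic liver of M6, and 1 to 22 in those of the other mice. It passed the filter through the pre-metastatic livers alone, fell under it without M4, M6, M8, M10, or M12, and was not called without C1, C5, C6, or C7 or by limma (adjusted *p* = 0.369). The part of these cells, and of blood held in the tissue, in the rises of the members was not tested.

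In the primary tumor the members parted. *Itgam*, *Cd33*, *Trem1*, *Nos2*, and *Cybb* were called higher than in pre-metastatic liver, by 2.02-fold for *Cybb* to 44.5-fold for *Nos2*, whereas no change was called for *S100a8*, *S100a9*, *Retnlg*, or *Cd177*. Of the 10 members, 9 passed the filter, 5 rose, and the other 4 were not called, with a median of 1.01 against 0.13 over all genes tested. In this comparison 83.3% of 19749 genes were called and 43.8% were called higher (39.5% lower), a split that becomes 67.6% higher and 21.3% lower with library totals, so a call alone sets no gene apart. The same 5 members did not overlap between the groups by RPKM, which leaves out the TMM factors. In that direction 52.9% of all genes did not overlap by RPKM either. For *Cybb* the separation depended on the scaling, as given below.

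**Figure D2:**
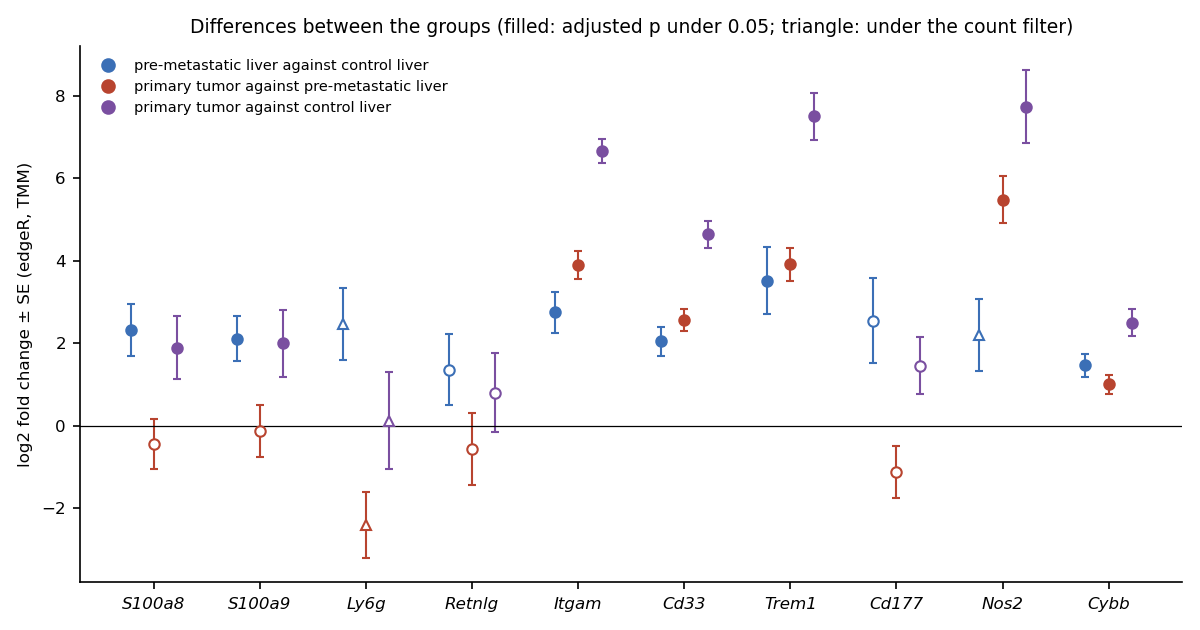
log2 fold change ± SE by edgeR with TMM scaling for the 10 genes in the 3 comparisons, which share libraries in pairs, filled where the adjusted *p* is under 0.05 and as open triangles where the gene was under the count filter and was fitted without it. *S100a8* and *S100a9* lie near 2 for pre-metastatic liver against control liver and near 0 for tumor against pre-metastatic liver, and *Itgam* lies at 2.75 and 3.9.

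*S100a8* was at 3.42 to 89.6 RPKM in the tumors with a median of 25.3, a 26.2-fold range that took in the pre-metastatic livers of all mice but M2. The difference was -0.44 ± 0.61 on the log2 scale by TMM (edgeR adjusted *p* = 0.502) and 0.77 by library totals (adjusted *p* = 0.225), so the direction depended on the scaling and neither passed. The tumor exceeded the liver of the same mouse in 6 of 9 mice by RPKM, and was below it in M4, M10, and M12. *S100a9*, at 2.63 to 148.0 RPKM (median 35.2), differed by -0.13 ± 0.63 by TMM (adjusted *p* = 0.851) and by 1.08 by library totals (adjusted *p* = 0.111), with the same 6 mice higher in tumor.

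*Ly6g* was at 0 counts in the tumors of M4, M8, M10, and M12 and at 1, 2, and 4 counts in those of M5, M6, and M7. It reached 16 and 19 counts in M1 and M2. The tumor was below the liver in 8 of 9 mice by RPKM. Fitted without the count filter, it was 2.41 lower on the log2 scale (log2 fold change -2.41 ± 0.8, edgeR adjusted *p* = 0.0124), but so few counts carry little precision and the gene was not among those tested under the filter. A count of 0 allows up to 3 counts, which is 0.0452 to 0.0612 RPKM in these tumors and covers counting error only.

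*Retnlg* was at 0.0928 to 6.62 RPKM in the tumors with a median of 0.602, and was higher than in the liver of the same mouse in 4 of 9 mice. The difference was -0.56 ± 0.87 by TMM (edgeR adjusted *p* = 0.551) and 0.67 by library totals (adjusted *p* = 0.455). *Cd177* was at 0.0521 to 0.58 RPKM (median 0.25) and differed by -1.13 ± 0.63 by TMM (adjusted *p* = 0.104) and by 0.07 by library totals (adjusted *p* = 0.91). Both groups of tumors and livers overlapped for these genes.

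*Itgam* was at 39.5 to 75.1 RPKM in the tumors with a median of 49.8, which put every tumor above every liver. It had the highest mean of the 10 genes in tumor (53.1 ± 11.8 RPKM, SD, n = 9), whereas in control liver its mean per length was the fifth. The rise over pre-metastatic liver was 15.0-fold (log2 3.9 ± 0.34, edgeR adjusted *p* = 1.45e-09). By RPKM the tumor was higher in 9 of 9 mice (exact sign-flip *p* = 0.00391, the smallest for 9 mice). In contrast to *S100a8*, its highest tumor exceeded its lowest by 1.9-fold.

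*Cd33* was at 1.95 to 5.46 RPKM in the tumors (median 3.29), a rise of 5.91-fold (log2 2.56 ± 0.27, edgeR adjusted *p* = 2.26e-08). *Trem1* was at 0.752 to 2.79 RPKM (median 2.09), a rise of 15.0-fold (log2 3.91 ± 0.41, adjusted *p* = 2.61e-08). *Nos2* was at 0.542 to 9.01 RPKM (median 3.97) on 173 to 2547 counts, a rise of 44.5-fold (log2 5.48 ± 0.57, adjusted *p* = 2.52e-08). All 3 were higher in tumor than in liver in 9 of 9 mice by RPKM. *Cybb* was at 13.9 to 39.7 RPKM (median 18.5) and rose 2.02-fold by TMM (log2 1.01 ± 0.23, adjusted *p* = 0.000519). Its level in tumor exceeded that in liver in 9 of 9 mice by RPKM, which leaves out the TMM factors. In M1 it was at 13.9 RPKM in tumor and 7.85 RPKM in liver, with TMM factors of 1.54 and 0.72. Scaled by these factors, the M1 tumor was below the M1 liver, so the groups overlapped on that scale. With the mouse as a replicate block, the same 5 members were called and no others.

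**Figure D3:**
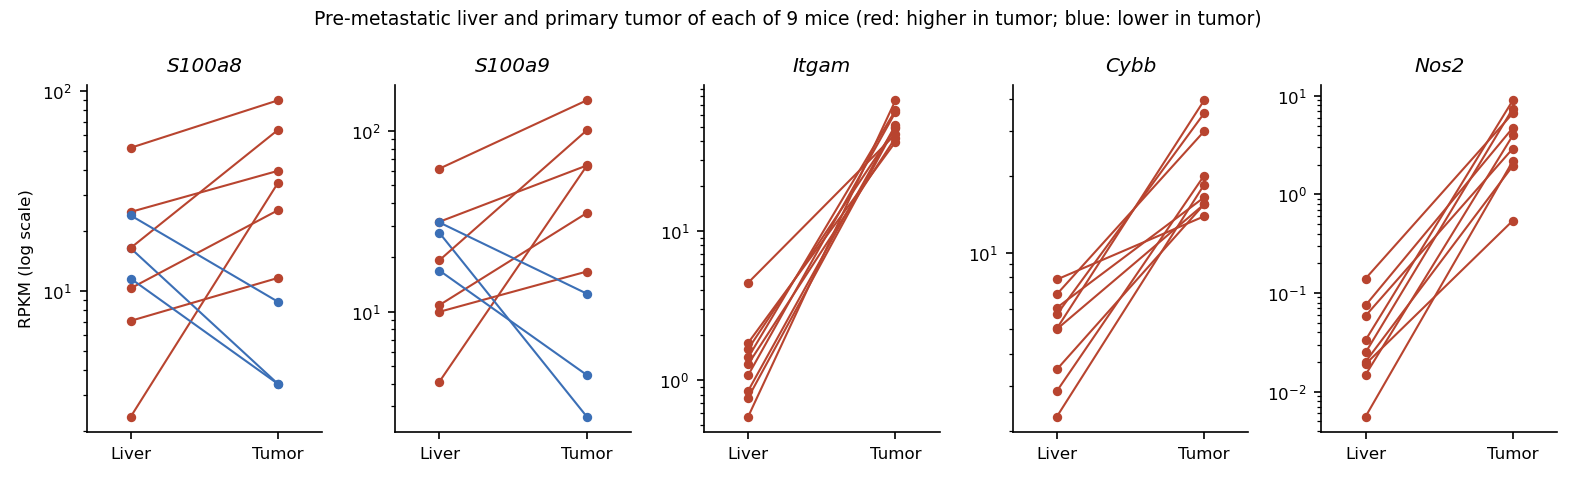
RPKM (log axis) of *S100a8*, *S100a9*, *Itgam*, *Cybb*, and *Nos2* in liver and tumor of each tumor-bearing mouse (n = 9), the values of a mouse joined by a line, red where the tumor was higher and blue where it was lower. The lines cross for *S100a8* and *S100a9*, with 6 mice higher in tumor, and rise in 9 of 9 mice for the other 3 genes.

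The parting of *Itgam* from *S100a8* was tested on the ratio of their RPKM within each library, which no scaling changes. This ratio was chosen after the values had been seen, so its *p* values do not account for other pairs that could have been chosen. It was 0.0182 to 0.167 in control liver, 0.0468 to 0.243 in pre-metastatic liver, and 0.496 to 15.0 in the tumor, with medians of 0.0858, 0.0867, and 2.17. The tumors did not overlap the livers. The tumors exceeded pre-metastatic liver by 4.91 on the log2 scale (exact two-sided Wilcoxon rank-sum *p* = 4.11e-05, 0.000247 adjusted over 6 tests, the smallest for 9 against 9) and control liver by 5.42 (exact *p* = 0.000999, adjusted 0.003). Between the liver groups the ratio differed by 0.51 (exact *p* = 0.606), so the rises of *Itgam* and of *S100a8* in pre-metastatic liver were not told apart.

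**Figure D4:**
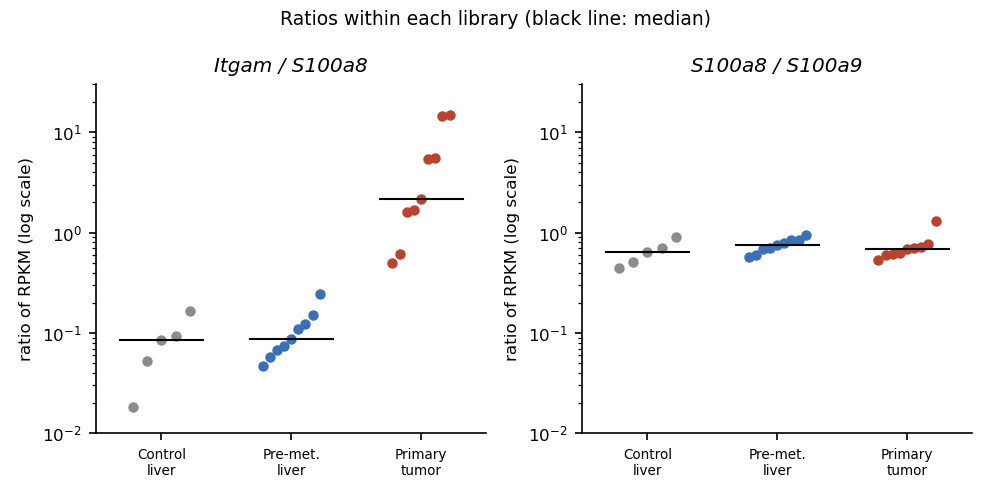
Ratio of RPKM within each library (log axis) for *Itgam* over *S100a8* (left) and *S100a8* over *S100a9* (right), each point a library and the black line the median. The first ratio lies between 0.496 and 15.0 in the tumors and at or under 0.243 in all livers, and the second ratio overlaps in all 3 groups.

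Against control liver, which no mouse shares with the tumors, 9 members passed, 7 rose, and the other 2 were not called, with a median of 2.5 against 0.18 over all genes, where 82.3% of 19320 genes were called and 44.2% were called higher and 38.1% lower (66.6% and 21.4% by library totals). *Itgam* was 102.0-fold higher (log2 6.67 ± 0.29, edgeR adjusted *p* = 3.51e-12), *Cd33* 24.9-fold (4.64 ± 0.33, adjusted *p* = 1.56e-09), and *Cybb* 5.65-fold (2.5 ± 0.33, adjusted *p* = 2.74e-06). *Nos2*, with 12 counts in all in the control livers and 10217 in the tumors, was 7.74 ± 0.89 higher (adjusted *p* = 6.57e-07). *Trem1*, with 3823 counts against 5, was 182.0-fold higher by TMM (log2 7.51 ± 0.57, adjusted *p* = 3.31e-09), and the ratio of its counts per total, without TMM, was 418.0 (95% interval for counting error 179.0 to 1290.0). These 5 genes did not overlap by RPKM, as was so for 56.4% of all genes in that direction. *Trem1* and *Nos2* passed the filter through the tumors alone.

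*S100a8* (1.89 ± 0.76, edgeR adjusted *p* = 0.0301) and *S100a9* (2.0 ± 0.81, adjusted *p* = 0.0312) also rose in tumor against control liver, but both overlapped between the groups. The *S100a8* call was lost without any of the control livers C1, C4, or C6 or the tumors M1 or M8, and that of *S100a9* without these or C7 and in the early phase (adjusted *p* = 0.0581) or by the exact Wilcoxon rank-sum test on RPKM (*p* = 0.0599, adjusted 0.0675). Without the tumor of M1 the differences were 1.53 (adjusted *p* = 0.0548) and 1.61 (adjusted *p* = 0.0573). *Retnlg* (0.8 ± 0.96, adjusted *p* = 0.445) and *Cd177* (1.45 ± 0.69, adjusted *p* = 0.0614) were not called. *Cd177* was called under 5 of 8 alternatives, by DESeq2 (adjusted *p* = 0.0365), limma (0.00629), the exact Wilcoxon test (0.0086), upper-quartile scaling (0.0405), and library totals (0.00378).

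Other genes of these pathways were mostly higher in tumor than in pre-metastatic liver. Of all genes tested, 43.8% were called higher and 39.5% lower by TMM, and 67.6% and 21.3% by library totals. The list counts given from here on for this comparison stand beside these shares, and no list was tested against them. The same 5 oxidase genes all rose, from *Cybc1* (0.76) to *Cyba* (2.06). Of the 6 integrin and adaptor genes, 5 rose, led by *Itgb2* (2.35) and *Itgax* (2.04). *Itgal* was at -0.44 by TMM (edgeR adjusted *p* = 0.152) and 0.73 by library totals (adjusted *p* = 0.0293). Of 13 neutrophil surface and activation genes tested, 8 rose and 1 fell by TMM and 12 rose and 0 fell by library totals. *Clec4d* (3.89), *Clec4e* (3.44), *Padi4* (2.12), and *Il1b* (2.01) rose most. The gene that fell was the formyl peptide receptor *Fpr1* (-1.11 by TMM and 0.05 by library totals), named after its value was seen.

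Against pre-metastatic liver, most granule genes made early in the bone marrow were lower in tumors. *Prtn3* (-6.57), *Elane* (-5.54), and *Mpo* (-4.8) fell, 3 of 4 tested precursor genes, and *Ctsg* was at 1.47 (edgeR adjusted *p* = 0.0931) by TMM and rose by library totals (2.67, adjusted *p* = 0.00439). Against control liver *Ctsg* rose (4.37, adjusted *p* = 0.00313) and 1 of the 4 fell. Of the secondary and tertiary granule genes, *Lcn2* (-8.01), *Camp* (-5.77), *Ngp* (-5.75), and *Ltf* (-4.37) fell. From the same list *Mmp9* (3.83), *Mmp8* (2.44), and the leukotriene receptor gene *Ltb4r1* (1.59) rose, these 3 named after their values were seen. The 7 precursor and granule genes that fell also fell by library totals. *Lcn2* is also made by hepatocytes, whose markers were low in the tumors, and their part in its fall was not tested. The list of attractants and growth factors also holds the receptor genes *Tlr4* and *Ager*, and 6 of its 7 tested genes were higher. In it *Cxcl1* fell (-4.85), and *Cxcl2*, *Cxcl3*, and *Csf2* rose from means of 0.0611, 0.00883, and 0.00178 RPKM to 10.3, 6.51, and 0.682 RPKM. These 3 reached 10 counts in no pre-metastatic liver, so their difference was required for them to be tested. The same was so for *Ido1* and *Il10*, 2 of the suppressive effectors that rose. Of the suppressive effectors, 7 of 9 rose, led by *Ido1* (7.74), *Ptgs2* (7.6), and *Ptges* (6.23), and *Slc7a2* (-5.8) and *Arg1* (-3.35) fell.

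Markers of other cells moved with the members in tumor too. All 7 monocyte markers rose (median 2.59), to sums of 180.0 to 261.0 RPKM. All 4 leukocyte markers rose, to sums of 121.0 to 270.0 RPKM, and all 4 T cell markers rose. Macrophage markers divided, 3 higher and 4 lower of 8, the liver-resident markers *Clec4f* (-11.66), *Vsig4* (-7.09), *Marco* (-6.19), and *Timd4* (-3.31) being the lower ones. Red cell genes (5 of 5) and B cell genes (4 of 4 by TMM, 1 of 4 by library totals) were lower. Platelet genes were 1 higher and 1 lower of 4 by TMM and 4 higher by library totals. *Itgam*, *Cd33*, *Trem1*, *Nos2*, and *Cybb* are expressed by monocytes and macrophages as well as neutrophils, and the part of each cell type in their rise was not tested.

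The members were also compared with *S100a8* between mice of the same group. Across the 9 pre-metastatic livers, Spearman's rho with *S100a8* was 0.98 for *S100a9* and for *Retnlg* (exact permutation *p* = 4.96e-05 and 0.000223 adjusted over 9 genes, each) and 0.9 for *Cd177* (exact *p* = 0.00203, adjusted 0.00608), with Pearson's r on log2(RPKM + 1) of 0.99, 0.73, and 0.79 (exact *p* = 8.27e-06, 0.0282, and 0.012, adjusted 7.44e-05, 0.0635, and 0.0386). Without M1 and M2, the mice farthest from the median of *S100a8*, r was 0.95, 0.73, and 0.81. *Itgam* correlated less closely (rho 0.78, exact *p* = 0.0172, adjusted 0.0388, r 0.81, exact *p* = 0.0129, adjusted 0.0386), and without M1 and M2 its r was 0.45 (exact *p* = 0.306), so the relation did not hold without these 2 mice. On ranks, the call was lost without any of M1, M2, M6, M8, or M12. For *Cybb*, rho was 0.0 (exact *p* = 1.0), and for *Ly6g*, *Cd33*, *Trem1*, and *Nos2* it was 0.2 to 0.43, none of which passed.

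Across the 9 tumors, *S100a9* (rho 0.98, exact *p* = 4.96e-05, adjusted 0.000446, r 0.99, exact *p* = 5.51e-06, adjusted 4.96e-05) and *Retnlg* (rho 0.93, exact *p* = 0.00075, adjusted 0.00337, r 0.82, exact *p* = 0.00319, adjusted 0.0143) again varied with *S100a8*. Without M4 and M10 their r was 1.0 and 0.84. *Nos2* (rho 0.77, exact *p* = 0.0214, adjusted 0.0642) and *Cd177* (rho 0.7, exact *p* = 0.0433, adjusted 0.0973) did not pass on ranks, and their r was 0.73 (exact *p* = 0.0257, adjusted 0.0578) and 0.75 (exact *p* = 0.0151, adjusted 0.0452). Without M4 and M10 these were 0.4 and 0.66. *Trem1* (rho 0.55, exact *p* = 0.133, adjusted 0.171, r 0.64, exact *p* = 0.0641, adjusted 0.115) and *Ly6g* (rho 0.57, exact *p* = 0.111, adjusted 0.171, r 0.58, exact *p* = 0.101, adjusted 0.152) did not pass. Without M4 and M10 the r of *Trem1* was 0.87 (exact *p* = 0.0133) and its rho 0.86 (exact *p* = 0.0238), and the r of *Ly6g* was 0.49. *Itgam*, *Cd33*, and *Cybb* had rho of -0.23, -0.35, and -0.55 (exact *p* = 0.552, 0.359, and 0.133), with r of -0.11, -0.35, and -0.4 (exact *p* = 0.779, 0.351, and 0.274). The tumors with most *S100a8*, those of M1 (89.6 RPKM) and M8 (63.8 RPKM), were among the lowest for *Itgam* (44.5 and 39.5 RPKM). Those next in *S100a8*, M6 (39.8 RPKM) and M2 (34.7 RPKM), were the highest for *Itgam* (64.5 and 75.1 RPKM). Ranked within clock phase, *S100a9* and *Retnlg* kept an adjusted exact *p* under 0.05 in both tissues, and *Itgam* in liver did not (adjusted *p* = 0.0984).

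**Figure D5:**
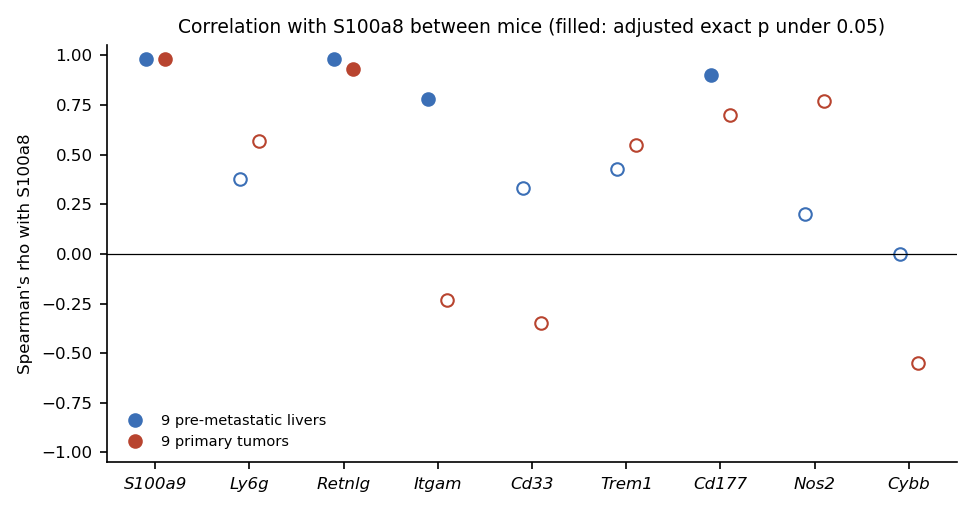
Spearman's rho (vertical axis, no unit) of each other gene with *S100a8* across the 9 pre-metastatic livers (blue) and the 9 primary tumors (red), filled where the exact *p* adjusted over 9 genes is under 0.05. *S100a9* and *Retnlg* lie above 0.9 in both tissues, and *Itgam* is at 0.78 in liver and -0.23 in tumor.

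The level in a tumor was not shown to follow that in the liver of the same mouse. Spearman's rho between tumor and liver was 0.4 for *S100a8*, 0.27 for *S100a9*, 0.55 for *Retnlg*, and -0.65 for *Itgam*, the last 2 being the extremes of the 10 genes, and 0 of 10 passed (smallest exact permutation *p* = 0.0666, adjusted 0.425). Pearson's r was 0.22, 0.06, 0.73, and -0.52, and *Retnlg* alone had an unadjusted exact *p* under 0.05 (0.0345, adjusted 0.285). Without M1 and M6 its r was -0.17. Mouse M1 had the most *S100a8* in both tissues (51.9 and 89.6 RPKM). Mouse M2 had the least in liver (2.35 RPKM) and 34.7 RPKM in its tumor, and M4 had 16.3 RPKM in liver and 3.42 RPKM in tumor.

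The genes most like *S100a8* outside the 10 differed between the tissues. By Pearson's r of log2(RPKM + 1) across the 14 livers, and after *S100a9* (r = 0.986), they were *Elane* (0.954), a protease of granulocyte precursors, *Ngp* (0.929), a protein of secondary granules, *Stil* (0.906), *Plscr1* (0.901), and *Mcemp1* (0.895). Across the 9 tumors, and after *S100a9* (0.994), they were *Cxcr2* (0.973), the chemokine receptor of mature neutrophils, *Cxcl2* (0.962), a ligand of that receptor, *Gm5483* (0.955), *Rdh12* (0.946), and *Asprv1* (0.942). These are descriptions over few libraries, the 14 livers include both groups, and genes were ranked among 16986 in liver and 19574 in tumor.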

How the data were processed

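Poly(A) RNA of 23 tissue samples was sequenced from NEBNext Ultra libraries. The authors deposited, for each of 48897 genes, the raw count of every library, without normalization, and RPKM values, in which counts are scaled to gene length and library total. RPKM recomputed here from the deposited counts and lengths differed from the deposited value by a relative 1.75e-06 at most. The submitters' processing notes name HISAT2, HISAT, HTSeq 0.6.0, and mm10, without their roles being used here. Whether counting used strand, and how reads matching several genes were treated, is not given in the sources used here. All 46 count and RPKM columns were matched to samples by mouse number and tissue code. Lines of a repeated symbol (2 lines, none of them a member) were summed. Depth was 44587556 to 79773163 counts per library, and the precision of a low gene is limited by its count. No library was a copy of another (smallest chi-square over degrees of freedom between libraries of a group, 32.5).

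Groups were taken from the labels. Counts were tested with edgeR 4.0.16 in R 4.3.3 (TMM scaling, quasi-likelihood test, two-sided) on genes that reached 10 counts in 5 or more libraries of the comparison, with Benjamini-Hochberg adjustment over all of them. Alternatives were DESeq2 1.42.0, limma 3.58.1 on log2(RPKM + 1), other scalings and filters, exact Wilcoxon rank-sum tests on RPKM, a fit of all 23 libraries, the clock phase, and each library left out in turn. Scaling by library totals, the ratio of *Itgam* to *S100a8*, and the sign-flip test were chosen after seeing the data. Correlations used exact two-sided permutation over all pairings with Python 3.11.15 and scipy 1.17.1. The edgeR step was tested on simulated counts. The tumor and liver of a mouse share its number. Deviations of tumor and liver from their group means, over 14185 genes, had a mean correlation of 0.0814 for the same mouse (lowest -0.0405) and of -0.0104 for different mice, and the mouse was used as a block in an alternative fit.

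The 10 members and the gene lists were chosen with earlier results of these data known. All members are named in every group. Of each list, the 4 called genes with the largest change are named, with the short lists of oxidase genes and of integrin and adaptor genes named whole, and the 5 genes most like *S100a8* in each tissue. Some list genes are not reported here and were left out of the counts of their lists. Promoter sequences are RefSeq's for GRCm38.p6, and positions are those of the deposited table.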

Additional observations from a re-analysis of the deposited data

Results flagged for a closer look

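Of 30 sets of values (10 genes in 3 groups), 9 held a library set apart from the rest of its group by a gap larger than Dixon's 95% limit. Normal values exceed this limit in about 1 of 20 such sets. RPKM was used without a log scale and can be skewed, and the sets share libraries. The number flagged was therefore not tested against chance. The pre-metastatic liver of mouse M1 stood above the other 8 for *S100a8* (51.9 RPKM, the next 24.8), *S100a9* (62.0, the next 31.5), *Ly6g* (0.82, the next 0.247), *Itgam* (4.5, the next 1.78), and *Cd177* (1.16, the next 0.294). *Retnlg* was highest in the pre-metastatic liver of M6 (3.8 RPKM, the next 1.78, in M1) and in the tumor of M1 (6.62, the next 2.83). In control liver, *Ly6g* was highest in C6 (0.146 RPKM on 7 counts, the next 0.0356) and *Nos2* in C7 (0.0364 RPKM on 9 counts, the next 0.00736). The calls made in pre-metastatic liver for *S100a8*, *S100a9*, *Itgam*, *Cd33*, and *Cybb* were also made without M1, and *Trem1* then fell under the count filter.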

How the results depend on the processing

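The number of members called stayed within 1.5 times its value under every alternative run. In pre-metastatic against control liver it was 6, and 4 to 7 under the alternatives, the lowest with a mean of at least 50 counts, which leaves *Cd33* and *Trem1* untested, and 5 to 7 with each library left out in turn. In tumor against pre-metastatic liver it was 5 under the other alternatives and with each library left out, and 6 without a count filter, where *Ly6g* was called lower. In tumor against control liver it was 7, and 6 to 8 under the alternatives and 5 to 8 with each library left out, *Cd177* being called without C5 or M4. The mouse as a replicate block changed no call among the members (*S100a8* -0.76, *Itgam* 4.15, 5 called), and 16329 genes were called with it against 16457 without. The uncalled differences between tumor and pre-metastatic liver turned their sign. *S100a8* was 0.42 by Wilcoxon and limma on log2(RPKM + 1) and 0.77 by library totals. *S100a9* was 0.51 by both, 1.08 by library totals, and 0.04 by upper-quartile scaling. *Retnlg* was 0.19 by both, 0.67 by library totals, and 0.25 in the late phase. *Cd177* was 0.05 by both and 0.07 by library totals. By construction, RPKM and library totals leave out the TMM factors, which differ between tumor and liver. With each library left out, *S100a9* ran from -0.56 to 0.17 and *Retnlg* from -1.54 to 0.28, and against control liver *Retnlg* ran from -0.12 to 1.03. *Cd177* in pre-metastatic liver was also called by the fit of all libraries (adjusted *p* = 0.0379) and without C5 or M2. The correlations with *S100a8* that passed numbered 3 to 4 in livers and 2 to 4 in tumors with each mouse left out, the call of *Itgam* in livers being lost without M1, M2, M6, M8, or M12 and calls in tumors being gained without M5, M6, M8, or M10, and in tumors *Itgam* ran from a rho of -0.4 to 0.05. Between tumor and liver of a mouse, 0 passed in any setting, and rho ran from -0.05 to 0.43 for *S100a9*, -0.33 to 0.14 for *Trem1* (0.21 within clock phase), -0.02 to 0.52 for *Cd177*, and -0.21 to 0.33 for *Cybb*. The cause of these changes was not tested apart from the scaling. Low counts limit the precision of *Ly6g*, *Trem1*, *Nos2*, and *Cd177* in liver.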
